A study of Mus musculus with 3 samples.

Results

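The vesicular glutamate transporters are 3 genes, Slc17a6, Slc17a7 and Slc17a8, chosen by name as the transporters that fill synaptic vesicles with glutamate. They are 3 of the 31055 genes in the deposited count matrices, and all 3 were found there. Each is described here across the clusters and subclusters of nuclei that the study deposited, and by which of them were detected in the same nucleus. Nuclei came from the olfactory bulbs of 3 adult C57Bl/6 mice and were read as 1 10x library per mouse. All mice carried the same virus, retroAAV-CAG-H2B-GFP, which was injected into the piriform cortex (PCx) and the anterior olfactory nucleus (AON), and GFP-positive nuclei were sorted. There is 1 group and no treated or control arm, so every comparison is between types of nuclei with the mice as replicates. The CAG promoter that drives GFP is not restricted to a cell type, and the sort did not leave projection neurons alone, since 18479 of the 31703 retained nuclei were inhibitory neuron-like here.

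Glutamate is the transmitter of the projection neurons of the olfactory bulb, the mitral cells (MCs) and tufted cells (TCs), which carry odour signals from the glomeruli to the olfactory cortex. A vesicular glutamate transporter sits in the membrane of the synaptic vesicle and uses the gradient made by the vesicular proton pump to load glutamate from the cytoplasm. Slc17a7 encodes VGLUT1, the form typical of the cerebral cortex, Slc17a6 encodes VGLUT2, typical of thalamus, hypothalamus and brainstem, and Slc17a8 encodes VGLUT3, found in sparse cells that often use another transmitter too. Most other neurons of the bulb, granule and periglomerular cells, release GABA and load it with another transporter, Slc32a1.

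In mm10 (GRCm38) coordinates of the GENCODE annotation, Slc17a6 (ENSMUSG00000030500) spans chr7:51622006-51671119 on the plus strand and Slc17a7 (ENSMUSG00000070570) spans chr7:45163949-45176142 on the plus strand. Slc17a8 (ENSMUSG00000019935) spans chr10:89574020-89621253 on the minus strand. All 3 are protein-coding. The annotated gene Gm45072 overlaps Slc17a6, and the microRNA gene Mir7055 lies within Slc17a7. The exons of Slc17a6, Slc17a7 and Slc17a8 cover 5399, 5392 and 4720 bases, and no run of 31 bases is shared between their transcripts, so reads of that length cannot be swapped between the members.

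The 250 bases upstream of each gene's RefSeq start (GRCm38.p6) are shown because the levels of Slc17a6 and Slc17a7 differed between subclusters, with that of Slc17a8 beside them. They were searched on both strands for the letters GGTGTG (a T-box site), TAATTA (a homeodomain core), GGGCGG (a GC box) and CATCTG (an E box), and matches are in capitals. The windows are chr7:51621580-51621829 for Slc17a6, chr7:45163671-45163920 for Slc17a7 and, on the minus strand, chr10:89621250-89621499 for Slc17a8.
Slc17a6: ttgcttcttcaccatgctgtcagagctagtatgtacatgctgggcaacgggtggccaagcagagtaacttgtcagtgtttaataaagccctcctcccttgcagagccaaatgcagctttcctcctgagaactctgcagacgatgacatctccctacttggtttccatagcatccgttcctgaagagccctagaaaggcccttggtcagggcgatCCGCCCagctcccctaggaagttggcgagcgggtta
Slc17a7: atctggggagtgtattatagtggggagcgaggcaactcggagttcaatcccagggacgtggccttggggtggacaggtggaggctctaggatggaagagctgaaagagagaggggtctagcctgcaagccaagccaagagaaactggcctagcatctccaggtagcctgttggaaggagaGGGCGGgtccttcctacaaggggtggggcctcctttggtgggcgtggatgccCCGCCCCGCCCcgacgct
Slc17a8: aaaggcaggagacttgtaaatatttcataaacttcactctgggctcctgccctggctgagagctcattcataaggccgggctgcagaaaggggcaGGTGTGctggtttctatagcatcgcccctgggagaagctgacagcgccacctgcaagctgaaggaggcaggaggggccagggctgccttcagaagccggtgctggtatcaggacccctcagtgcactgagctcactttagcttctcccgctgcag
Slc17a6 held 1 GGGCGG match, Slc17a7 held 3, of which 2 overlap each other near the 3′ end, and Slc17a8 held 1 GGTGTG match. GGGCGG occurred in 32.7% and GGTGTG in 16.3% of 32851 mouse promoter windows of this length. TAATTA and CATCTG were in none of the 3 windows, against 4.84% and 14.4% of all windows. The GC content was 53.2%, 61.2% and 57.2%, where the median window had 52.4%. A match is a string of letters and was not tested as a binding site.

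The 3 libraries held 7718, 29829 and 6876 barcodes, of which 5845, 21105 and 4753 were among the 31703 nuclei that the authors retained. Median depth was 7940, 8420 and 10568 UMIs (unique molecular identifiers, each counting 1 captured transcript) per retained nucleus. Pairs of libraries shared 8 to 39 retained barcode sequences. The authors placed the nuclei in 22 clusters and divided 7504 nuclei of projection neuron clusters into 10 subclusters. Here subclusters were named from marker lists as M1-like, M2-like and M3-like (mitral), T1-like (middle tufted), and ET1-like, ET2-like and ET4-like (external tufted). Subcluster 9 was periglomerular-like, and subclusters 2 and 8 stayed unnamed because fewer than 3 markers of any list were carried. In subcluster 2, 94.1% of nuclei held a UMI of Gad1, the GABA-synthesis enzyme, at 287 ± 46.6 CPM (counts scaled to 1000000 UMIs per library, SD, n = 3). Among its leading genes were Adamts19 and Stxbp6, which also led the inhibitory neuron-like cluster 0, and Slit3 and Rgs6, which also led the inhibitory neuron-like cluster 1, and the part of such RNA in its transporter levels was not tested. Mouse 1 gave only 14 M1-like nuclei. The authors used these transporters among the markers with which they picked the projection neuron clusters, so projection neurons against other nuclei is a description. The subclusters were formed from the same counts, so p-values between subclusters do not allow for that choice.

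Across all subclustered nuclei Slc17a7 was found in most nuclei, Slc17a6 in a minority and Slc17a8 in very few. At least 1 Slc17a7 UMI was present in 86.8% ± 3.46 of subclustered nuclei (SD, n = 3 mice), a Slc17a6 UMI in 36.7% ± 4.75 and a Slc17a8 UMI in 0.409% ± 0.138. In glia-like nuclei, which should lack these genes, the shares were 15.6% ± 2.98 for Slc17a7 and 4.55% ± 1.10 for Slc17a6. Depth was unequal, with a median of 15360.5 UMIs in subclustered and 5189 in glia-like nuclei. After every nucleus was thinned to 2000 UMIs, leaving out 7 shallower subclustered and 20 shallower glia-like nuclei, the shares were 42.0% against 7.27% for Slc17a7 and 12.3% against 2.03% for Slc17a6. Inhibitory neuron-like nuclei, at a median of 7974 UMIs, had thinned shares of 4.19% and 0.815%, below those of the glia-like nuclei. As levels, Slc17a7 was at 297 ± 60.0 CPM in subclustered, 45.8 ± 2.49 CPM in glia-like and 19.8 ± 2.19 CPM in inhibitory neuron-like nuclei. Slc17a6 was at 62.3 ± 5.20, 11.6 ± 2.36 and 3.91 ± 1.28 CPM in the same order.

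Slc17a6 was concentrated in ET4-like and ET2-like nuclei and was lowest in the T1-like and M2-like nuclei. In ET4-like nuclei it was at 314, 250 and 268 CPM in mice 1, 2 and 3. ET2-like nuclei had 268, 258 and 248 CPM. These ranges overlap each other and lie above those of all other subclusters. Subcluster 8 followed with 156, 111 and 173 CPM, and M3-like nuclei had 136, 105 and 70.9 CPM. M1-like nuclei had 68.1, 87.0 and 90.4 CPM. From M3-like to subcluster 8 the mice overlap, as they do from M1-like to M3-like. ET1-like nuclei had 40.4, 51.0 and 41.8 CPM, and subcluster 2 had 23.2, 39.8 and 25.3 CPM. T1-like nuclei had 18.7, 15.1 and 19.0 CPM. M2-like nuclei, the second largest subcluster with 1149 nuclei, had 9.06, 12.5 and 14.5 CPM, a range that overlaps that of the glia-like nuclei at 9.09, 11.8 and 13.8 CPM. Beside this background the M2-like level is not shown to be expression in those nuclei. Single glial clusters reached or passed the T1-like range too. Astrocyte-like nuclei of mouse 3 had 17.4 CPM from 23 UMIs. In mouse 2, oligodendrocyte-like nuclei had 20.4 CPM from 34 UMIs and microglia-like nuclei 26.7 CPM from 15 UMIs. In the other mice these clusters had 0 to 11.4 CPM.

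Slc17a7 was present in every subcluster and varied less between them. T1-like nuclei had 491, 338 and 413 CPM, and M3-like nuclei had 517, 313 and 392 CPM. M2-like nuclei had 310, 272 and 307 CPM. ET4-like nuclei were lowest with 138, 92.1 and 79.6 CPM. The T1-like and M3-like ranges overlap, the M2-like range lies just below both, and all 3 lie above the ET4-like range, which in turn lies above the range of 43.0 to 47.3 CPM in all glia-like nuclei pooled. Single glial clusters overlap the ET4-like range, with 65.0, 62.2 and 115 CPM in microglia-like nuclei, from 4, 35 and 23 UMIs, and 114 CPM in OPC-like nuclei of mouse 3, from 14 UMIs in 1 nucleus. The mean levels of the others were 286 ± 53.7 CPM in ET1-like, 233 ± 16.4 in M1-like, 228 ± 40.0 in ET2-like, 218 ± 41.8 in subcluster 2 and 189 ± 2.91 in subcluster 8. Mouse 2 was the lowest for Slc17a7 in 9 of 10 subclusters and the highest for Gad1 in 9 of 10, and the part of other cells' RNA in these levels was not tested. CPM are relative to all UMIs of the same nuclei, so less RNA of a gene and more RNA of others cannot be told apart.

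**Figure D1:**
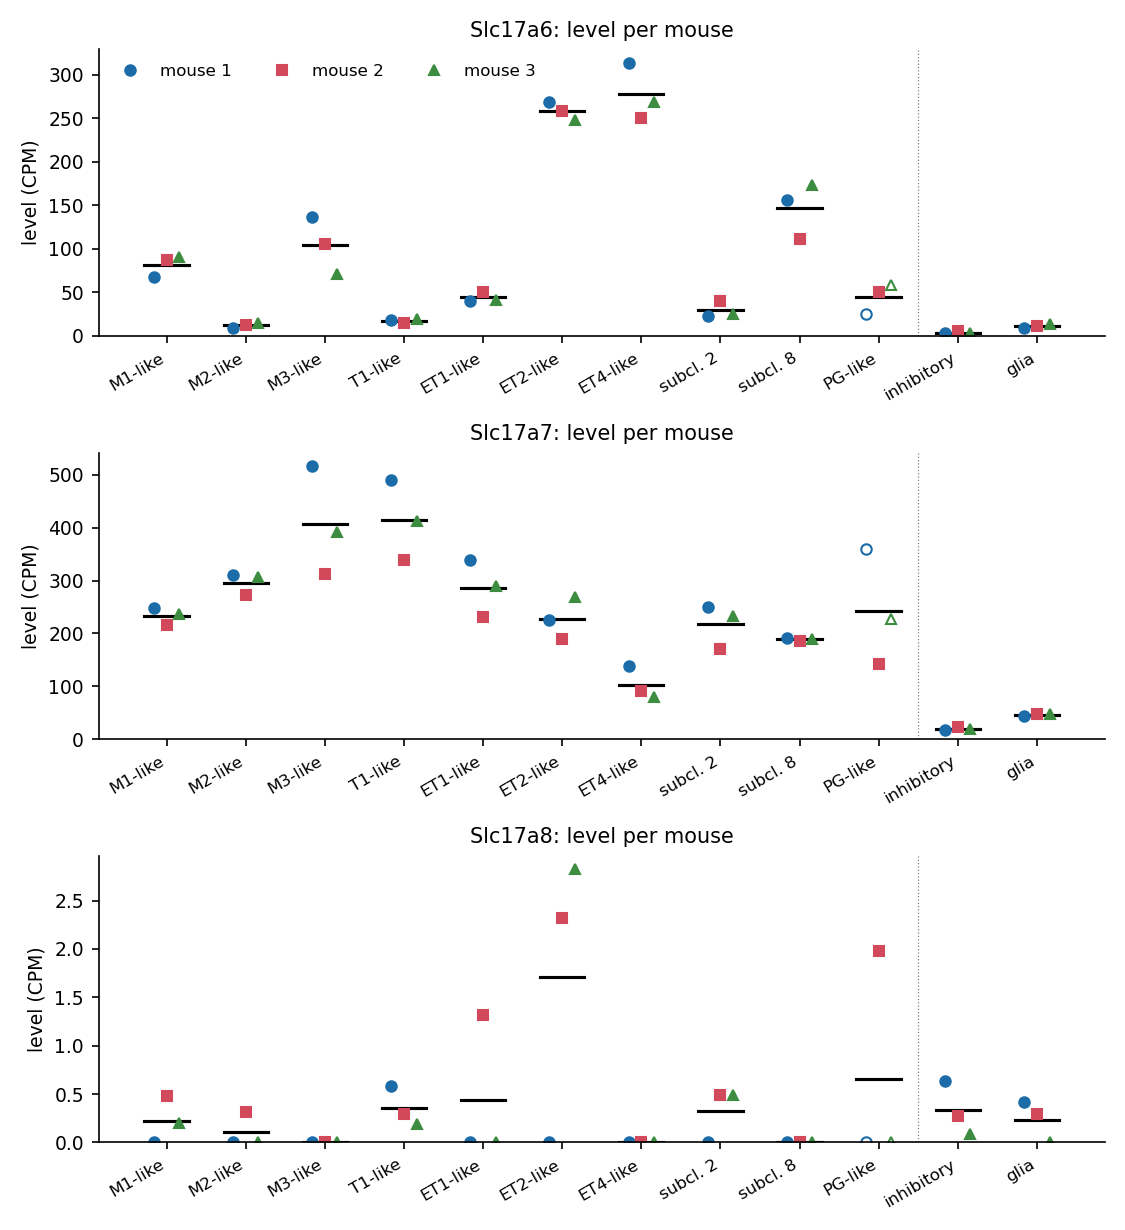
Level of each transporter (CPM, linear axis from 0) by subcluster and in all inhibitory neuron-like and glia-like nuclei; each symbol is 1 mouse, open symbols rest on fewer than 10 nuclei, and the bar is the mean of the mice. Slc17a6 is highest in ET4-like and ET2-like nuclei (277 and 258 CPM on average), Slc17a7 is lowest in ET4-like nuclei (103 CPM), and Slc17a8 stays under 3 CPM throughout.

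Counts were summed per mouse and subcluster and tested with edgeR's quasi-likelihood test, with p-values adjusted over 15611 genes by Benjamini-Hochberg. Both testable members differed between subclusters, Slc17a6 with an adjusted p of 4.64e-18 and Slc17a7 with an adjusted p of 1.15e-09. Of all genes tested, 61.3% did so. Slc17a8 had too few counts for the filter on low counts and was not in this test. Against the mean of the other subclusters, 8 of 20 tests of Slc17a6 and Slc17a7 passed an adjusted p of 0.05 with a log2 fold change beyond 1 in size, where 9.09% of all such tests over all genes did.

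Slc17a6 was higher than the mean of the others in ET4-like nuclei, by 2.24 on the log2 scale (SE 0.12, edgeR adjusted p = 9.15e-16), where 7.9% of all genes tested were called higher. In ET2-like nuclei it was higher by 2.14 (SE 0.13, edgeR adjusted p = 1.21e-14, all genes 6.69%), and in subcluster 8 by 1.25 (SE 0.16, edgeR adjusted p = 9.26e-07, all genes 3.85%). It was lower in M2-like nuclei, with a log2 fold change of -2.56 (SE 0.18, edgeR adjusted p = 1.16e-12, all genes lower 5.83%). In T1-like nuclei the log2 fold change was -1.99 (SE 0.17, edgeR adjusted p = 3.59e-11, all genes 5.87%), and in subcluster 2 it was -1.18 (SE 0.17, edgeR adjusted p = 3.58e-06, all genes 0.243%). The M3-like, M1-like and ET1-like subclusters were within 1 log2 unit of the mean of the others, at 0.59, 0.52 and -0.51. Their edgeR adjusted p were 0.0144, 0.0105 and 0.0215, so they missed a call by size alone. Thus 6 of 10 subclusters were called for Slc17a6, and they include external tufted types on the high side and both a mitral and a tufted type on the low side.

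For Slc17a7 the calls were 2 of 10. It was lower in ET4-like nuclei, with a log2 fold change of -1.36 (SE 0.16, edgeR adjusted p = 2.41e-08, all genes lower 8.21%). In T1-like nuclei it was higher by 1.05 (SE 0.12, edgeR adjusted p = 4.21e-08, all genes higher 5.72%). This T1-like value is close to the threshold of 1 and fell under it without mouse 1 (1.00), without mouse 2 (0.99) and when libraries were scaled by their totals alone (0.93). M3-like, M2-like and ET1-like nuclei were higher by 0.74, 0.55 and 0.42 at edgeR adjusted p = 1.99e-04, 0.00117 and 0.0260, under the size needed for a call. The other 5 values lay between -0.86 and 0.03.

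The subclusters were then set in order of level, and each was compared with the next. Neighbours in a member's own order differ little by that choice, so the shares over all genes do not show that the member varies less. For Slc17a6 the order of the means was ET4-like, ET2-like, subcluster 8, M3-like, M1-like, periglomerular-like, ET1-like, subcluster 2, T1-like and M2-like. Of its 9 steps, 2 passed an edgeR adjusted p of 0.05, where over all genes 16.3% of these steps did. DESeq2 called 3, adding subcluster 8 over M3-like nuclei (0.63), and 6 had an unadjusted edgeR p under 0.05. With no filter on low counts 6 steps passed, all of them for Slc17a6. In 5 of the 9 steps every library of the higher subcluster lay above every library of the lower one. Ordering by the member's own means favours such separation, and its share over all genes was not computed. It is therefore a description only. Among the 5, M1-like over periglomerular-like nuclei rests on 1 periglomerular-like library. ET2-like nuclei were higher than subcluster 8 by 0.80 (SE 0.20, edgeR adjusted p = 0.00429), a pair in which 16.6% of all genes tested differed, and subcluster 2 was higher than T1-like nuclei by 0.73 (SE 0.20, edgeR adjusted p = 0.00943, all genes 18.6%). Both steps were lost without mouse 2, at 0.59 and 0.23, and in their place subcluster 8 over M3-like nuclei (0.84) and ET1-like nuclei over subcluster 2 (0.85) passed. ET4-like and ET2-like nuclei were 0.09 apart (edgeR adjusted p = 0.768, all genes 31.2%). T1-like and M2-like nuclei were 0.51 apart (edgeR adjusted p = 0.108, all genes 14.2%). For Slc17a7 the order was T1-like, M3-like, M2-like, ET1-like, M1-like, ET2-like, subcluster 2, subcluster 8, periglomerular-like and ET4-like, and 0 of 9 steps passed in edgeR, with adjusted p from 0.194 to 0.946 where over all genes 18.9% of these steps passed. At an unadjusted p under 0.05 the count was also 0 for Slc17a7, and DESeq2 called 0. With the mouse as a block, 5 of 18 steps passed, adding ET1-like over subcluster 2 (0.56) and M1-like over periglomerular-like nuclei (0.92) for Slc17a6 and periglomerular-like over ET4-like nuclei (0.66) for Slc17a7. The periglomerular-like subcluster entered with mouse 2 alone, since mice 1 and 3 gave 9 and 8 nuclei, and is assumed to vary like the others.

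**Figure D2:**
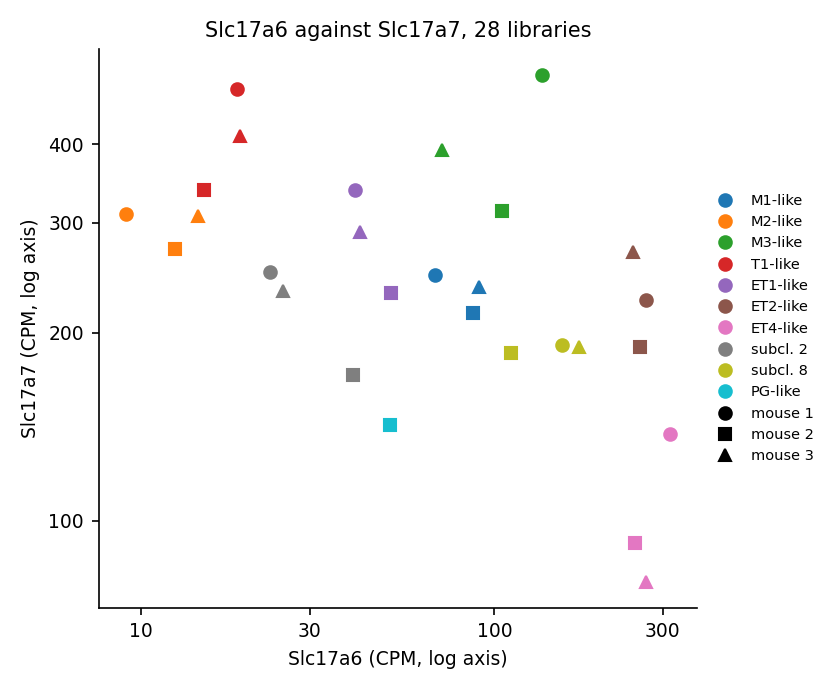
Slc17a6 against Slc17a7 (CPM, both axes logarithmic) in the 28 libraries of summed counts with at least 10 nuclei, coloured by subcluster and shaped by mouse. ET4-like libraries sit at high Slc17a6 and low Slc17a7, and the T1-like and M2-like libraries at low Slc17a6 and high Slc17a7, while ET2-like libraries join high Slc17a6 to middle levels of Slc17a7 (190 to 269 CPM).

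Between MCs and TCs as classes, both testable members differed by less than 1 log2 unit. Slc17a6 had a median of 70.9 CPM over 9 libraries of mitral-like subclusters, from 9.06 to 136. In 12 libraries of tufted-like subclusters the median was 149 CPM, from 15.1 to 314. The ranges overlap, but the 3 ET4-like and 3 ET2-like libraries lie above every mitral-like library. The mitral mean was lower by 0.86 on the log2 scale, as a log2 fold change of -0.86 (SE 0.11, edgeR adjusted p = 3.63e-07). Slc17a7 ranged from 215 to 517 CPM in mitral-like and from 79.6 to 491 CPM in tufted-like libraries and was higher in the mitral mean by 0.39 (SE 0.10, edgeR adjusted p = 0.00348). With a size beyond 1 required, 0 of the 2 members were called by edgeR and 0 by DESeq2, while 2 passed an unadjusted p of 0.05. Of all genes tested, 9.07% were called. Within the tufted-like types, ET4-like and T1-like nuclei lie at opposite ends of both orders, so the class means sit between unlike members.

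The share that Slc17a6 makes up of the UMIs of all 3 members sets the subclusters in a similar order. It was 73.2% ± 3.8 in ET4-like nuclei (SD, n = 3), 53.1% ± 4.96 in ET2-like nuclei and 43.4% ± 5.30 in subcluster 8. M1-like nuclei had 26.0% ± 3.86, M3-like nuclei 20.4% ± 4.90 and ET1-like nuclei 13.8% ± 3.8. In T1-like and M2-like nuclei it was 4.11% ± 0.393 and 3.91% ± 0.928. In glia-like nuclei the share was 19.9%, close to that of M3-like nuclei and above those of T1-like, M2-like and ET1-like nuclei, of subcluster 2 (12.4% ± 5.66) and of periglomerular-like nuclei (17.6% ± 10.1). The share compares subclusters with each other and not the members, because capture of the 3′ ends can differ between genes. Over the 28 libraries the log2 levels of Slc17a6 and Slc17a7 had a Pearson r of -0.541, a description across libraries that share mice and depth.

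In single nuclei, the mean share with both Slc17a6 and Slc17a7 was highest in ET2-like nuclei. Both had a UMI in 63.8%, 66.0% and 73.6% of ET2-like nuclei in mice 1, 2 and 3. Subcluster 8 came next with 56.0% ± 13.4 (SD, n = 3), a spread that reaches into the ET2-like range. In ET4-like nuclei both were found in 44.4%, 40.2% and 45.3%, Slc17a6 alone in 40.1% ± 1.68 and Slc17a7 alone in 8.36% ± 0.184. T1-like nuclei were the reverse, with both in 18.0% ± 2.26, Slc17a7 alone in 78.5% ± 2.12 and Slc17a6 alone in 0.438% ± 0.289. M2-like nuclei had both in 14.0% ± 4.51, ET1-like nuclei in 29.1% ± 4.88, M1-like nuclei in 49.8% ± 12.2 and M3-like nuclei in 31.6% ± 11.7. In glia-like nuclei both were found in 1.37% ± 0.636. The share of nuclei with neither was 5.61% ± 1.12 over all subclustered nuclei and highest, 18.4% ± 5.99, in M3-like nuclei, whose median depth of 5915 UMIs was below the 10419 to 20781 UMIs of the other subclusters.

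**Figure D3:**
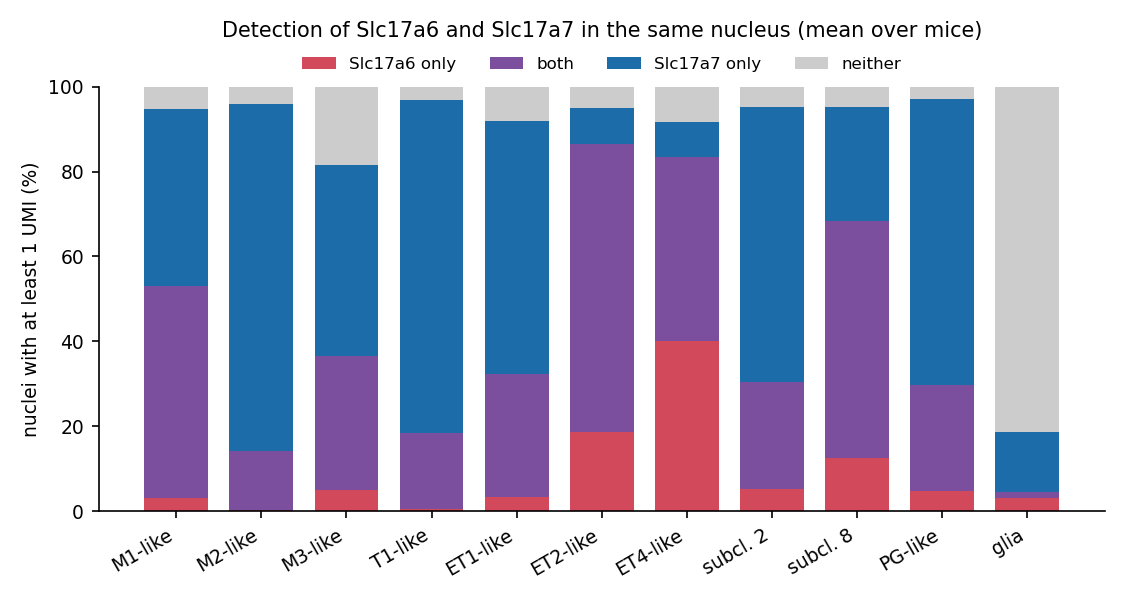
Share of nuclei (%, mean over 3 mice) with a UMI of Slc17a6 only, of both, of Slc17a7 only and of neither, by subcluster and in glia-like nuclei. Slc17a6-only nuclei make up 40.1% of ET4-like and 18.6% of ET2-like nuclei and at most 12.4% elsewhere, and Slc17a7-only nuclei make up 78.5% of T1-like and 81.8% of M2-like nuclei.

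Over all subclustered nuclei the pair was found together in 29.1% ± 4.40, against 31.8% for the product of the separate shares. The odds ratio of co-detection within 4 strata of UMI count was 0.304 to 0.426 over the mice, a value under 1 meaning fewer nuclei with both. In none of the 7 named subclusters was it under 1 in every mouse for which it could be computed. In ET2-like nuclei the odds ratio was 1.35, 1.88 and 1.09 in mice 1, 2 and 3, and in ET4-like nuclei 0.501, 1.37 and 0.378, on both sides of 1. T1-like nuclei ranged from 0.642 to 3.44. In subcluster 2, where most nuclei held Gad1, it was under 1 in every mouse, 0.429, 0.323 and 0.507. In periglomerular-like nuclei, most of which held Gad1 too, it was 0.427 in the 1 mouse for which it could be computed. In subcluster 2 the 140 nuclei without a Slc17a7 UMI had Slc17a6 at 123 ± 27.0 CPM and the 803 nuclei with one had 24.6 ± 6.17 CPM. In ET4-like nuclei Slc17a6 was also higher without a Slc17a7 UMI in every mouse, at 338, 278 and 333 CPM against 294, 225 and 225 CPM. T1-like nuclei had the same order at a lower level, with 19.0, 22.02 and 31.6 CPM against 18.7, 14.9 and 18.9 CPM. The T1-like values without a Slc17a7 UMI rest on 76 nuclei, of which 11 held Slc17a6, and in mouse 1 the values nearly coincide. In the other subclusters, leaving out the periglomerular-like one, the direction differed between the mice. M1-like nuclei had 0, 101 and 118 CPM without and 70.5, 86.0 and 89.4 CPM with a Slc17a7 UMI, where mouse 1 had 1 nucleus without. Among periglomerular-like nuclei only mouse 2 had any without a Slc17a7 UMI, so the mice cannot be compared there. Its values were 94.6 CPM without and 39.6 CPM with one. Nuclei without a Slc17a7 UMI were also shallower, with a median of 9574.5 against 11337 UMIs in ET4-like and 8100.5 against 15968 UMIs in T1-like nuclei. Over all subclustered nuclei they were 209 ± 42.7 and 50.4 ± 5.81 CPM. Nuclei are not replicates, so no p is given for these ratios.

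Outside the projection neurons most nuclei were inhibitory neuron-like, and in these, pooled, Slc17a6 and Slc17a7 lay below the level of all glia-like nuclei. Among 17 clusters without subclusters, Slc17a6 (edgeR adjusted p = 2.03e-04) and Slc17a7 (edgeR adjusted p = 8.11e-08) differed between clusters, as did 74.8% of 15539 genes tested. Against the mean of these clusters 4 of 34 tests were called, against 12.7% over all genes. More were called with DESeq2 and with scaling by library size alone. Slc17a7 was lower in the inhibitory neuron-like clusters 3 and 6, with log2 fold changes of -1.01 in both (edgeR adjusted p = 0.00255 and 0.00440), where 7.62% and 4.34% of all genes were called lower. Both lie at the threshold and fell under it without mouse 1 or mouse 3 and with the mouse as a block (-0.99 in each). Neither was called when nuclei with fewer than 1500 genes were left out. With the block Slc17a6 in cluster 6 was called instead, with a log2 fold change of -1.10. Cluster 21 had 163 and 318 CPM of Slc17a7 and 44.1 and 112 CPM of Slc17a6 in mice 2 and 3. It was higher for Slc17a7 by 2.39 (SE 0.40, edgeR adjusted p = 3.85e-04) and for Slc17a6 by 2.92 (SE 0.75, edgeR adjusted p = 0.0224), where 1.17% of all genes were called higher. Only mice 2 and 3 entered the test, since mouse 1 gave 9 nuclei. The cluster's 103 nuclei had a median of 2240 UMIs, and its Slc17a7 rests on 1, 48 and 17 UMIs and its Slc17a6 on 0, 13 and 6 UMIs by mouse. Of 19 Slc17a6 UMIs, 11 lay in 2 nuclei of mouse 2 with at least 5 each, a limit chosen after the values were seen. Without these nuclei Slc17a6 in mouse 2 was at 7.69 CPM, below the 11.8 CPM of its glia-like nuclei. The same limit left Slc17a7 at 147 and 179 CPM in mice 2 and 3. Both calls were lost when nuclei with fewer than 1500 genes were left out and without mouse 2, and that for Slc17a6 also without mouse 3, each of which leaves 1 library that is assumed to vary like the others. The microglia-like cluster 20 was not called for Slc17a7 (0.99, SE 0.36, edgeR adjusted p = 0.0503), nor was the unnamed cluster 18, which had 17.9, 44.2 and 124 CPM. The unnamed cluster 8 had 38.2, 31.5 and 99.6 CPM of Slc17a7, with mouse 3 far above the others, and was not called (0.76, SE 0.22, edgeR adjusted p = 0.0121). Without mouse 2 it was called, at 1.15 for Slc17a7 and 1.72 for Slc17a6, and without mouse 3 the values were 0.071 and 0.14.

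**Figure D4:**
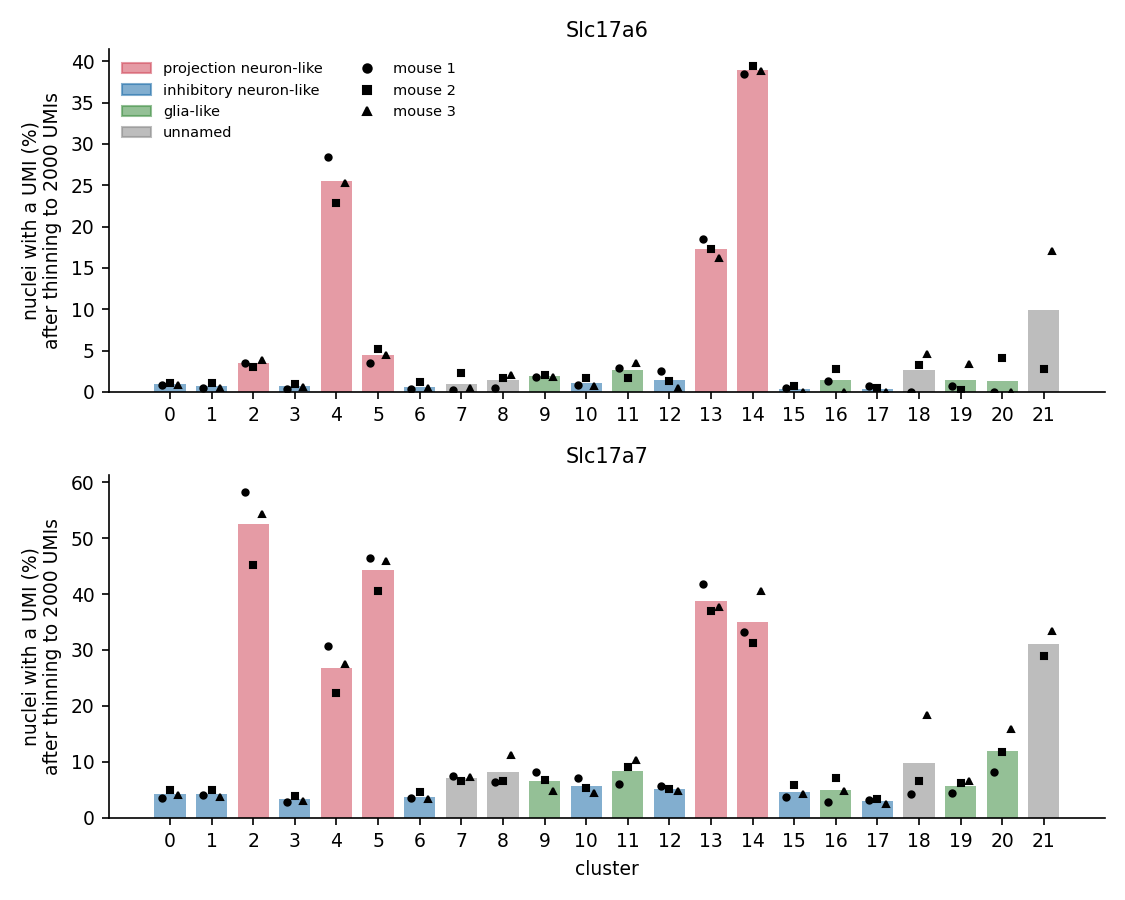
Share of nuclei (%) with a UMI of Slc17a6 (top) or Slc17a7 (bottom) after thinning each nucleus to 2000 UMIs, by cluster; bars are means over mice, points are mice, and mice with fewer than 10 nuclei in a cluster are not drawn. Slc17a6 stands out in clusters 14 (38.9%), 4 (25.5%) and 13 (17.3%), Slc17a7 in all 5 projection neuron-like clusters (26.8% to 52.6%), and cluster 21 shows a Slc17a7 share of 28.9% and 33.4% in mice 2 and 3 that rests on 43 and 15 nuclei.

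Slc17a8 was rare in all types. It gave 118 UMIs in 77 of the 31703 retained nuclei, of which 50 held 1 UMI, 20 held 2, 4 held 3, 1 held 4 and 2 held 6. By mouse these were 24, 84 and 10 UMIs in 18, 51 and 8 nuclei. The largest number came from the inhibitory neuron-like cluster 6, with 13, 20 and 2 UMIs in 8, 13 and 1 nuclei, a level of 4.08, 1.98 and 0.849 CPM. Of these 22 nuclei, 21 held a UMI of Gad2, 20 of Gad1 and 20 of Slc32a1, the vesicular GABA transporter, while 3 held Slc17a7 and 1 Slc17a6. Th, the dopamine-synthesis enzyme, was found in 6 of the 22 (27.3%, exact 95% interval 10.7% to 50.2%). Among all nuclei of this cluster 73.6% held Th, at median depths of 8633.5 and 9566 UMIs. The 22 nuclei are pooled over mice, 13 of them from mouse 2 and 1 from mouse 3, and nuclei are not replicates. The interval covers counting error only, so a difference in Th was not tested. Glia-like nuclei gave 5 Slc17a8 UMIs in 4 nuclei.

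Among projection neurons, ET2-like nuclei had the highest Slc17a8 level, with 0, 9 and 4 UMIs in mice 1, 2 and 3, or 0, 2.32 and 2.82 CPM. Mouse 1 gave only 69 ET2-like nuclei, and 0 UMIs there allow up to 3.47 CPM (3 counts), so at this depth mouse 1 cannot be told apart from the others. The UMIs lay in 8 nuclei, of which 8 held Slc17a6, 7 held Slc17a7, 1 held Gad1 and 0 held Slc32a1. ET1-like nuclei gave 8 UMIs, all in mouse 2, and T1-like nuclei 5, 5 and 2 UMIs. No Slc17a8 UMI was found in ET4-like, M3-like or subcluster 8 nuclei, and in ET4-like nuclei this allows up to 1.20, 0.513 and 2.10 CPM by mouse. It allows up to 5.45, 2.65 and 4.83 CPM in M3-like nuclei and 8.83, 3.27 and 2.42 CPM in subcluster 8. In M3-like nuclei these limits lie above the ET2-like level of the same mouse, so 0 UMIs there do not show a lower level. In subcluster 8 this holds in mice 1 and 2. In mouse 3 its limit of 2.42 CPM lies below the ET2-like 2.82 CPM, which rests on 4 UMIs. Slc17a8 did not pass the filter on low counts, so these levels are given as a description without a test or a fold change. Intervals and limits from 0 counts cover counting error only.

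**Figure D5:**
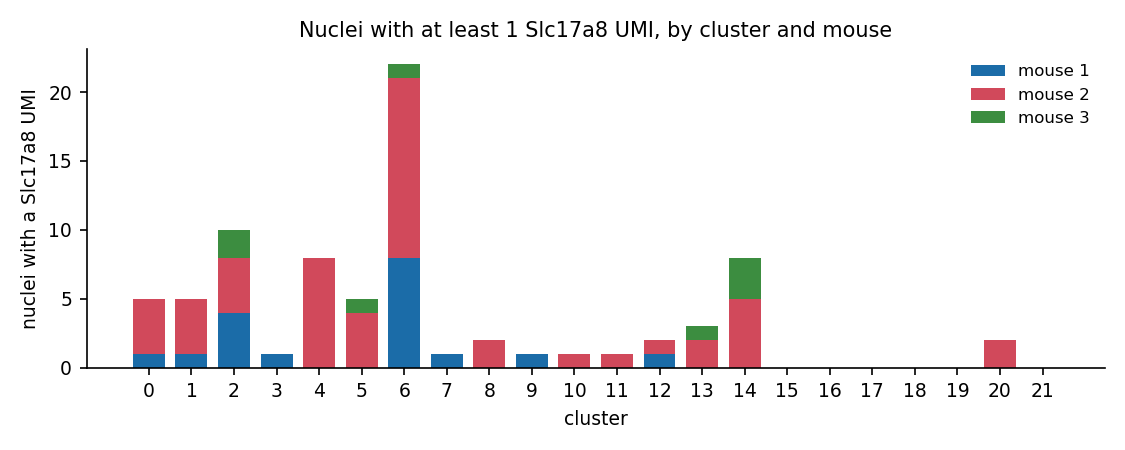
Number of nuclei with at least 1 Slc17a8 UMI in each of the 22 clusters, stacked by mouse; clusters differ in size, so heights are not shares. Cluster 6 has 22 such nuclei out of 1411, the tallest bar, and mouse 2, with the largest library, gave 51 of 77.

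The genes whose levels most resembled those of Slc17a6 over the 28 libraries (Pearson r of log2 of CPM plus 1) were Tspan2 (0.939), Grik4 (0.905), Gm45881 (0.874), Nrg1 (0.874) and Frmd5 (0.869). Grik4, a kainate receptor subunit, is on the list for ET4-like nuclei but was not among the markers that named them, and it was at 317 CPM in ET2-like against 95.2 CPM in ET4-like nuclei. For Slc17a7 they were Hipk2 (0.844), Camk1 (0.842), Cacng5 (0.831) and Cyp27a1 (0.823). These are descriptions over libraries that share mice.

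The genes that work beside the transporters were taken as a list in 4 groups and compared between mitral-like and tufted-like subclusters. Of 14 genes that make, move or clear glutamate, all were tested, 12 differed between subclusters, and 2 were called, both higher in mitral-like nuclei, with a median log2 difference of -0.06. Over all 15611 genes the counts were 9572 that differed, 883 called higher in mitral-like and 533 in tufted-like nuclei, and the median was -0.02. The pair called were Slc1a2, a plasma-membrane glutamate transporter (1.43, SE 0.13, edgeR adjusted p = 1.11e-10), and Slc38a3, a glutamine transporter (1.25, SE 0.13, edgeR adjusted p = 5.80e-09). By type, Slc1a2 reached 252 ± 31 CPM in the ET2-like subcluster and was down to 12.4 CPM in the ET1-like one. Slc38a3 reached 211 ± 14.2 CPM in the T1-like subcluster and was down to 5.14 ± 3.57 CPM in the ET2-like one. Thus ET2-like nuclei, among the highest for Slc17a6, had the highest Slc1a2 and the lowest Slc38a3 of the 7 named types.

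Of 11 genes for loading or making other transmitters, 8 were tested and differed between subclusters, and 0 were called between the classes by edgeR or DESeq2, with 1 at an unadjusted p under 0.05. Their largest differences were Slc30a3, the vesicular zinc transporter, with 1.89 (SE 0.72, edgeR adjusted p = 0.0521) at about 1.02 CPM in mitral-like nuclei, and Gad2, with -0.42 (SE 0.27, edgeR adjusted p = 0.285). Of 6 other members of the SLC17 family only Slc17a5, the lysosomal sialic acid transporter, was tested. It was at 56.4 ± 10.4 CPM in mitral-like and 73.0 ± 17.6 CPM in tufted-like libraries, a log2 difference of -0.25 (SE 0.08, edgeR adjusted p = 0.0241) that was too small for a call. Slc17a9, the vesicular nucleotide transporter, was not tested and stood at 1.02 and 2.09 CPM. Of 21 genes of the vesicular proton pump and other vesicle-associated proteins, 20 were tested, 17 differed between subclusters, and 1 was called higher in mitral-like nuclei. This was Syn2, a synapsin, with 2.28 (SE 0.18, edgeR adjusted p = 8.05e-12), from 691 ± 270 CPM in M1-like nuclei to 27.9 ± 8.96 CPM in ET1-like nuclei. Its class means were 425 ± 242 CPM in mitral-like and 176 ± 236 CPM in tufted-like libraries. The pump subunit Atp6v1g2 was lower in the mitral mean, at -0.57 (SE 0.13, edgeR adjusted p = 0.00109), without reaching the size of a call.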

How the data were processed

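The authors deposited 1 matrix of UMI counts per mouse (Cell Ranger 3.0.2, mm10/GRCm38) and a nucleus table with their clusters, subclusters and the percent of mitochondrial UMIs. They removed nuclei with few genes or a high percent of mitochondrial UMIs. The deposited counts were used unchanged, and 6 other numeric columns of the nucleus table were not used. The members, marker lists and pathway lists were chosen with earlier results of these data known.

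Counts were summed per mouse and subcluster (28 libraries of at least 10 nuclei, 161593 to 16961469 UMIs, 2 left out) or cluster (50 libraries, 1 left out). They were tested with edgeR 4.0.16 in R 4.3.3 (filterByExpr, TMM, quasi-likelihood test, Benjamini-Hochberg), calling an adjusted p under 0.05 with an absolute log2 fold change above 1, or the p alone for neighbours and for any difference. Each of the 3 mice gave 1 library of nuclei, so the summed libraries of a mouse share that animal. DESeq2 1.42.0, other scaling, no filter, a mouse block and each mouse left out were alternatives. Deviations from subcluster means correlated at 0.111 on average between libraries of the same mouse, which are paired by animal, and at -0.0550 between mice. Shares have exact binomial intervals. The named genes were the members, their list and the 5 genes with the highest r, of which 1 is not reported here. The tests were checked on simulated data. Doublets were not called.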

Additional observations from a re-analysis of the deposited data

Results flagged for a closer look

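The transporters also gave signal in barcodes that the authors did not retain, which no comparison above uses. In these 1873, 8724 and 2123 barcodes of mice 1, 2 and 3, with medians of 785, 732 and 808 UMIs, Slc17a7 stood at 278, 285 and 312 CPM and Slc17a6 at 32.2, 58.2 and 39.1 CPM, above the limits that 0 counts would allow. Slc17a8 had 1 UMI in each of the mice there. The source of this signal was not tested.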

How the results depend on the processing

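With 3 mice and 1 library each, differences near the threshold are not settled. Of 122 alternatives for the main counts and shares, 99 left them within the set limits, and of 450 for single comparisons 401 did. The count of 8 calls of subclusters against the others became 5 with only the 7 named types and 7 to 8 with a mouse left out. The 2 neighbour steps became 6 with no filter, 5 with the replicate block by mouse and 0 with only the 7 named types, which leaves out subclusters 2 and 8 and with them both steps. That 0 does not mean that named types next to each other were alike for Slc17a6. In the main fit ET1-like against M1-like nuclei had -0.93 (edgeR adjusted p = 7.17e-04, all genes 26.3%). ET1-like against T1-like nuclei had 1.33 (edgeR adjusted p = 1.04e-05, all genes 13.3%). The block moved no other count by over 1.5 times, though among other clusters it gave 3 calls, with Slc17a7 in clusters 3 and 6 at -0.99 and no longer called and Slc17a6 in cluster 6 called at -1.10. The 4 calls among other clusters became 7 with DESeq2, 8 with library size alone, 0 with nuclei of at least 1500 genes and 2 to 6 with a mouse left out, 2 without mouse 1. Library size alone moved all genes of the lists by -0.12 for the T1-like, -0.15 for the M2-like and 0.15 for the M3-like subcluster.

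Counting a gene as detected at 2 UMIs gave 24.8%, 77.7% and 0.127% of subclustered nuclei for Slc17a6, Slc17a7 and Slc17a8, thinning to 5000 UMIs gave 22.8%, 68.4% and 0.165%, and thinning to 2000 gave 12.3%, 42.0% and 0.0670%. At 2 UMIs both Slc17a6 and Slc17a7 were in 15.7% of subclustered, 21.6% of ET4-like and 46.6% of ET2-like nuclei. The mean odds ratio crossed 1 in ET4-like nuclei without strata (0.750 to 1.07) and in ET2-like nuclei at 2 UMIs (1.44 to 0.982), and was 2.08 there without strata.

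Uncalled differences near 0 changed sign. Slc17a7 in M1-like nuclei became -0.014 with library size alone, -0.19 with the 7 named types, -0.11 without subclusters 2 and 9 (an alternative chosen after seeing the data) and -0.13 to 0.12 with a mouse left out, and in ET2-like nuclei it was -0.24 to 0.028. With a mouse left out, the Slc17a6 steps were -0.00083 to 0.11 (ET4-like to ET2-like), -0.17 to 0.32 (M3-like to M1-like) and -0.065 to -0.025 (periglomerular-like to ET1-like). The last pair were -0.0090 and -0.023 with no filter. The Slc17a7 steps were -0.0066 to 0.17 (M1-like to ET2-like) and -0.066 to 0.14 (ET2-like to subcluster 2). The cause was not tested.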

Other observations

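In the unnamed cluster 8, much of the Slc17a7 came from few nuclei, most of them from mouse 3. Nuclei with at least 5 Slc17a7 UMIs, a limit chosen after the values were seen, numbered 43 of 1356, with 5, 4 and 34 in mice 1, 2 and 3, and held 312 of the 670 Slc17a7 UMIs of the cluster (46.6%). Without them the level was 25.6, 28.7 and 36.0 CPM. Such nuclei also held 45.8% of the Slc17a7 UMIs of OPC-like nuclei (3 nuclei), 36.1% in cluster 18 (3 nuclei) and 27.8% in ensheathing glia-like nuclei (14 nuclei). In the inhibitory neuron-like clusters they held 0% to 27.7%. In astrocyte-like nuclei they held 21.5%, and the same limit left these at 42.5, 34.6 and 24.2 CPM. The 43 nuclei of cluster 8 had a median depth of 27770 UMIs, against 7172 in the other nuclei of the cluster. Genes compared between these 43 nuclei and the rest were also chosen after their values were seen. Gad1 was at 83.6 CPM against 651 CPM in the rest, and Foxp2, a forkhead factor that led the cluster, at 210.1 against 1879 CPM. Fam19a1, a secreted ligand, was at 4991 against 529 CPM, and at 10.8 CPM in subclustered nuclei. In mouse 3 alone Fam19a1 was at 5226 against 1411 CPM. A Fam19a1 UMI was also present in 81 of the 1313 other nuclei of the cluster, so the limit does not bound the nuclei with this gene. Neurod2, a factor of excitatory forebrain neurons, was at 32.6 against 1.99 CPM. Tbx21 and Cdhr1, markers of bulb projection neurons, were at 7.96 and 43.8 CPM, where subclustered nuclei had 43.7 and 327 CPM. Eomes, another such marker, was at 22.3 CPM, against 8.97 in the rest and 113 in subclustered nuclei, while Tbr1, which mitral and tufted cells also express, was at 25.5 CPM, against 3.07 in the rest and 16.04 in subclustered nuclei. In mice 1 and 2, without mouse 3, the nuclei above the limit had 185 CPM of Gad1, 345 of Foxp2, 3950 of Fam19a1 and 17.2 of Neurod2. The rest of the cluster in mice 1 and 2 had 695, 1881, 301 and 1.46 CPM of these genes. Tbx21 and Cdhr1 were at 12.9 and 68.9 CPM in the nuclei above the limit in mice 1 and 2. What the 43 nuclei are was not tested.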
